A study of Oryza sativa with 36 samples.

Results

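The calcium-dependent protein kinases (CDPKs) and the CBL-interacting protein kinases (CIPKs) of rice were taken as the genes whose symbol or synonym is CPK, CDPK or CIPK followed by a number. The gene table held 54 such genes, 24 CDPKs and 30 CIPKs. Of these, 20 CDPKs and 24 CIPKs had a probe set assigned to no other gene, so 44 of 54 were measured, among 17905 genes measured in that way. OsCPK11, OsCPK14, OsCPK25 and OsCPK28 and OsCIPK3, OsCIPK9, OsCIPK13, OsCIPK15, OsCIPK27 and OsCIPK33 were not analysed here. Each gene was represented by its brightest probe set, and levels of different genes were not compared because probe sets differ in brightness. The probe sets of OsCPK5, OsCPK12, OsCPK18, OsCIPK2, OsCIPK11 and OsCIPK16 are of kinds that can cross-hybridise with other transcripts. OsCPK2, OsCPK22 and OsCPK29 stood below an intensity of 32 in at least 18 of the 36 arrays, where a change could hardly be seen.

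The study compared salt-tolerant PL177, a pyramiding line bred from introgression lines in the IR64 background, with its parent IR64, each genotype being 1 line. Seedlings at the three-leaf stage received nutrient solution alone (control), 140 mM NaCl (salt), or 140 mM NaCl with 10 µM abscisic acid (salt+ABA), and the labels of the treated samples give 4 d, whereas the methods give a longer time under treatment for the scoring of symptoms and none for the RNA. Shoots (labelled leaf) and roots were hybridised to separate rice genome arrays, with 3 arrays in each of the 12 groups, which the methods call independent biological replicates. Values below are the deposited intensities on a linear scale. Fold changes are on the log2(intensity + 32) scale, and a gene was called when it differed by more than 2-fold at an adjusted p below 0.05 (limma, Benjamini-Hochberg adjustment over all 57258 probe sets).

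Both families read the calcium signals that salt, drought and ABA evoke in plant cells. A CDPK carries its calcium sensor, a calmodulin-like domain with EF hands, in the same protein as the kinase. A CIPK has no sensor of its own and is switched on by a calcineurin B-like protein (CBL) that binds its NAF motif. Well known pairs of this kind act on ion transport: CIPK24 is the rice SOS2, the kinase of the salt overly sensitive pathway for Na+ export, and CIPK23 with CBL1 activates the K+ channel AKT1 in roots.

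In the controls of both organs and in salt-treated roots, arrays of PL177 and IR64 with the same replicate number deviated together, which bears on several values below. The 2 shoot control arrays numbered 2 stood apart from the other shoot controls in many members. OsCIPK5 gave 1765 and 2498 in them against 706 to 734 in the other 4 shoot controls, and OsCPK21 gave 42.5 and 22.0 against 136 to 306. In roots the salt arrays numbered 3 stood apart, with OsCPK21 at 476 and 506 against 76.2 to 185 in the other 4. Most results that rest on these arrays are given with and without them, a choice made after seeing the data. The summed intensity of 6 leaf genes was 70990 to 76460 in shoots and 5889 to 28400 in roots, and that of 10 root genes was 23440 to 34900 in roots and 1453 to 5351 in shoots. In the shoots, 5 of the 6 leaf genes, and in the roots 8 of the 10 root genes, had every array above all arrays of the other organ, while RBCS1 of the leaf list stood at background everywhere. Leaf RNA in root arrays and true expression in roots cannot be told apart, nor can fewer cells of a type and less RNA per cell.

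**Figure D1:**
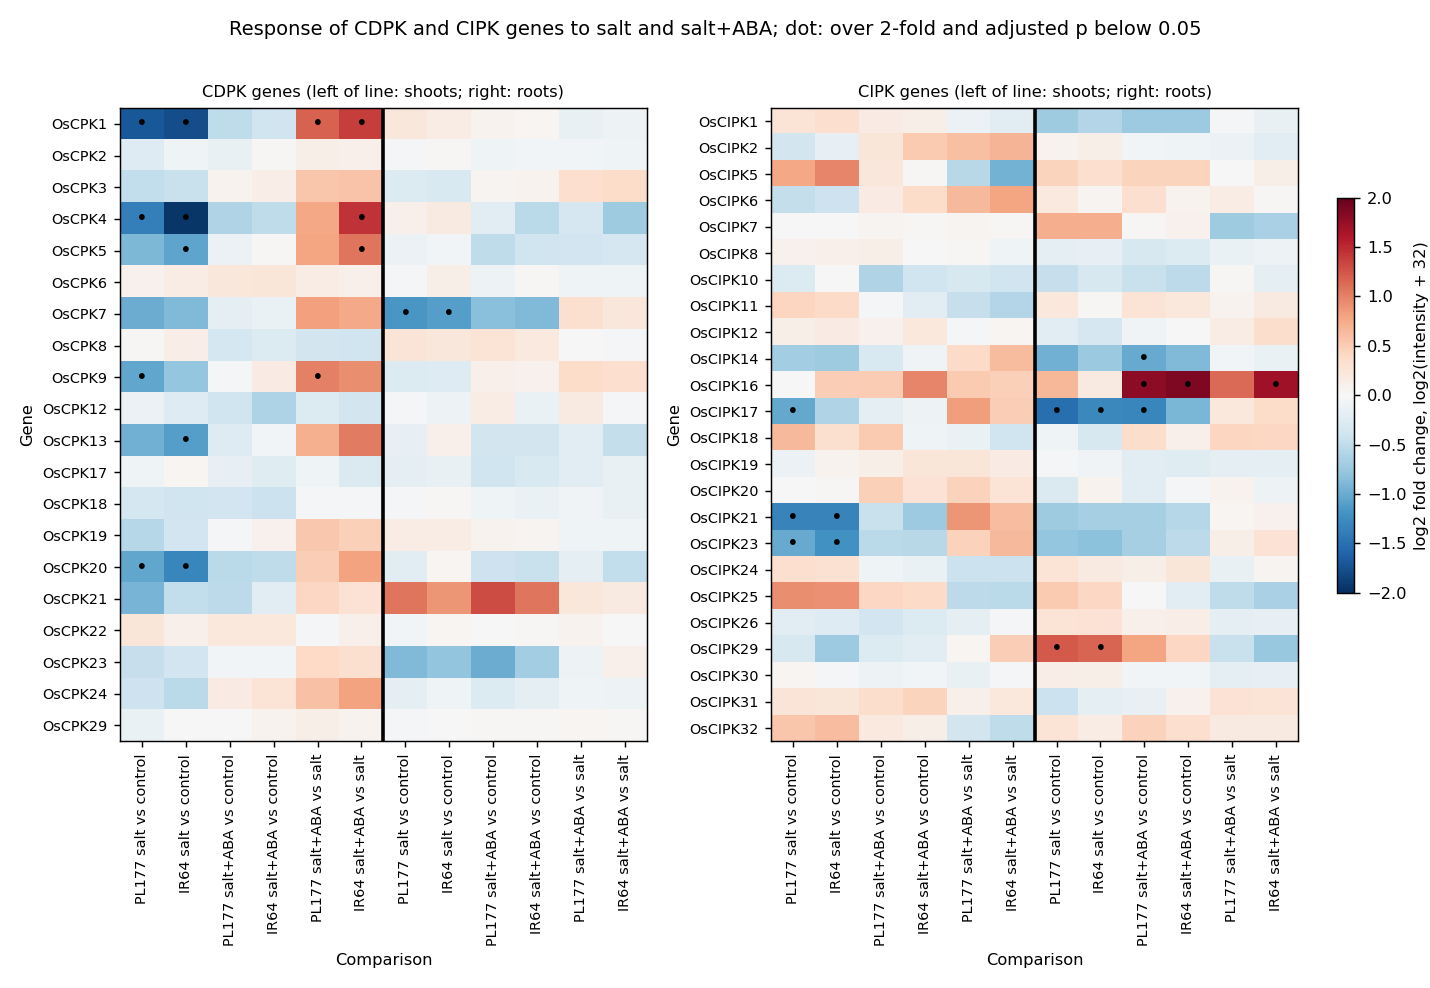
Log2 fold changes of the 20 CDPK genes (left) and 24 CIPK genes (right) in the 6 treatment comparisons of shoots and the 6 of roots, by genotype. Blue is lower, red is higher, and a dot marks a call (over 2-fold, adjusted p below 0.05). In shoots the CDPKs are mostly blue under salt and red when ABA was added, whereas the root calls lie mostly among the CIPKs.

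In shoots, salt lowered 6 of 20 CDPKs in at least 1 genotype and raised none. Against this 30.0% stood 1.65% of all probe sets called lower and 1.14% called higher in the same way. Shares over all probe sets, here and below, cover many dim ones, with 31.1% of values below 32. They are not matched to the members in brightness. OsCPK1, OsCPK4 and OsCPK20 were lower in both genotypes, OsCPK9 was called in PL177 alone, and OsCPK5 and OsCPK13 in IR64 alone. The median log2 fold change of the 20 CDPKs was -0.47 in PL177 and -0.42 in IR64, beside -0.007 and 0.002 over all probe sets. Of the 20, 15 had a fold change below 0 in both genotypes, which held for 36.8% of all probe sets. At an adjusted p below 0.05 without a fold limit, 7 CDPKs passed, where 14.6% of all probe sets did, the seventh being OsCPK7. The shoot arrays also carried a summed root-gene intensity of 3918 to 5351 in the controls and 1453 to 2402 under salt, whose part in these results was not tested.

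OsCPK1 had the largest fall of the family in PL177 shoots and the second largest in IR64. In PL177 it gave 3795, 3436 and 4647 under the control and 1478, 951 and 1064 under salt. IR64 gave 3875, 2415 and 5261 under the control and 1393, 769 and 943 under salt. The salt arrays lay below every control array in both genotypes, the IR64 control numbered 2 being the lowest control. The log2 fold change was -1.69 ± 0.23 (SE, n = 3 per group) in PL177 and -1.77 ± 0.23 in IR64 (limma, adjusted p = 0.000434 and 0.000276). It remained called without any 1 array, between -1.87 and -1.57 in PL177 and between -2.02 and -1.52 in IR64.

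OsCPK4, which raises salt and drought tolerance when overexpressed in rice, fell as far. It stood at 6067, 7018 and 5575 in PL177 controls and at 2395, 2008 and 2516 under salt. In IR64 the control arrays read 8035, 4573 and 7657 and the salt arrays 2506, 1047 and 1553. No salt array reached a control array in either genotype. The log2 fold changes were -1.37 ± 0.25 and -1.95 ± 0.25 (limma, adjusted p = 0.00258 and 0.000201), and both calls were kept without any 1 array.

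OsCPK20 was at 3007, 3978 and 2980 in PL177 controls and at 1717, 1327 and 1572 under salt. In IR64 it was at 4553, 2688 and 4705 and then at 1967, 1121 and 1417. The groups did not overlap in either genotype. The log2 fold change was -1.03 ± 0.20 in PL177 and -1.31 ± 0.20 in IR64 (limma, adjusted p = 0.00489 and 0.00103). The PL177 value slipped under 2-fold without PL177 control replicate 2 (-0.87) or PL177 salt replicate 2 (-0.94), at -0.99 with a larger constant added before the logarithm, and just under 2-fold with all 36 arrays in 1 fit, always at an adjusted p below 0.05.

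OsCPK5, OsCPK9 and OsCPK13 showed the same direction with a wider spread. OsCPK13, the OsCDPK7 of earlier names, whose overexpression raises cold and salt tolerance, gave 6937, 3965 and 8244 in IR64 controls and 4731, 1722 and 2351 under salt, so that the groups overlapped. Its log2 fold change was -1.10 ± 0.31 in IR64 (limma, adjusted p = 0.0385) and -0.96 ± 0.31 in PL177 (adjusted p = 0.0589), where the control arrays read 6532, 5259 and 7712 and the salt arrays 4393, 2530 and 2739. A second, dimmer probe set of OsCPK13 was called as well in IR64 (-1.31).

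OsCPK5 gave 2517, 1029 and 2658 in IR64 controls and 1348, 774 and 620 under salt, again with overlap. The log2 fold changes were -1.05 ± 0.30 in IR64 and -0.90 ± 0.30 in PL177 (limma, adjusted p = 0.0416 and 0.0687). OsCPK9, which acts in drought tolerance and spikelet fertility, gave 1456, 1093 and 2104 in PL177 controls and 1072, 551 and 584 under salt. These groups lay next to each other, with the lowest control just above the highest salt array. Its log2 fold changes were -1.04 ± 0.29 in PL177 and -0.77 ± 0.29 in IR64 (adjusted p = 0.0331 and 0.127).

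The calls of these 3 genes rested on few arrays, and those of OsCPK5 and OsCPK9 also ended at -0.97 and -0.95 with the larger constant. That of OsCPK5 was lost without any 1 of 12 of the 18 shoot arrays (adjusted p = 0.051 to 0.17), namely replicates 2 and 3 of PL177 salt and of IR64 salt, replicates 1 and 3 of the IR64 control, and every salt+ABA array. That of OsCPK13 was lost without any 1 of 10 (adjusted p = 0.051 to 0.166), the same set less the 2 PL177 salt arrays. That of OsCPK9 was lost without PL177 salt replicates 2 or 3 or PL177 control replicates 1 or 3 (adjusted p = 0.0667 to 0.138). Without both shoot control arrays numbered 2 OsCPK5 (-1.07 in PL177 and -1.43 in IR64) and OsCPK13 (-1.08 and -1.37) were called in both genotypes and OsCPK9 (-1.24) again in PL177. OsCPK7 then passed too, at -1.30 in PL177 and -1.13 in IR64, against -0.99 and -0.88 with all arrays.

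**Figure D2:**
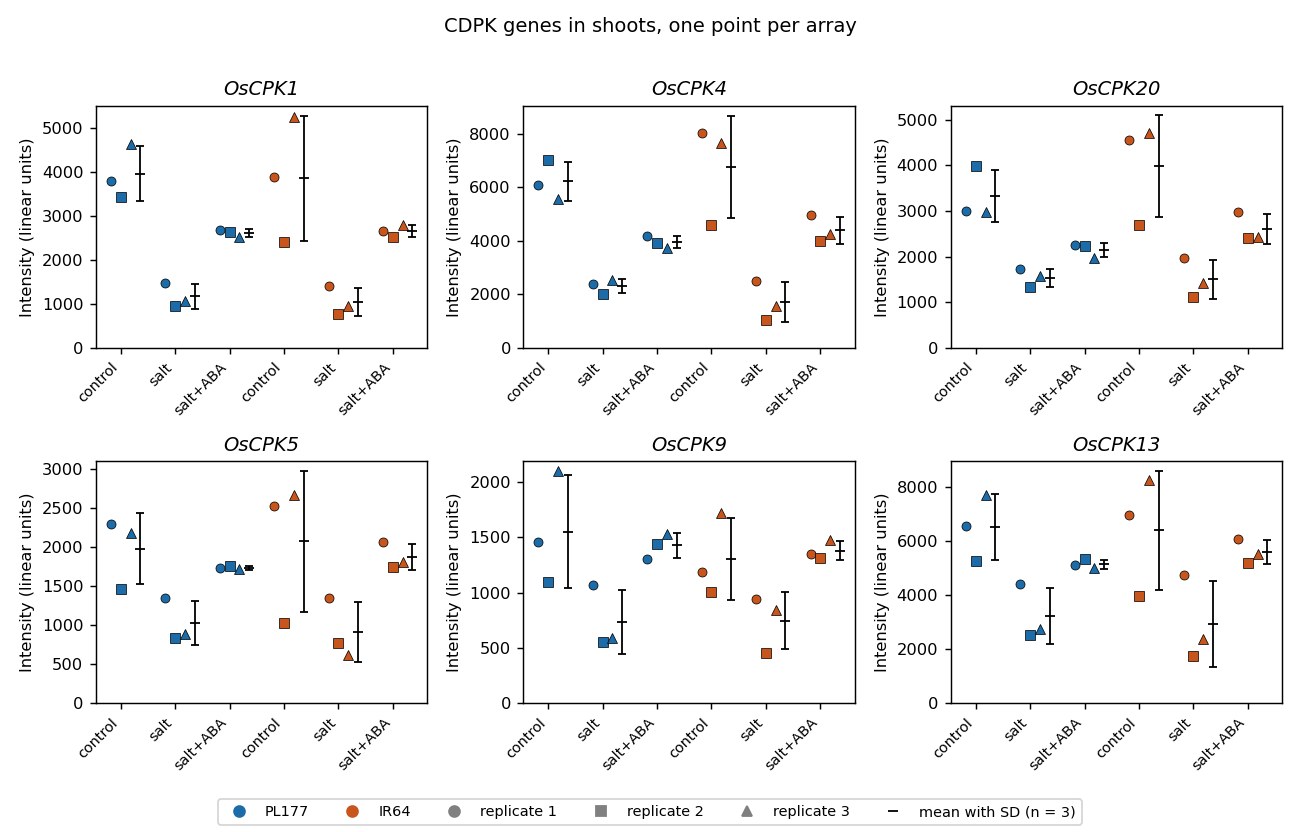
Deposited intensities (linear) of 6 CDPK genes in shoots, 1 point per array with the replicate number as symbol, PL177 in blue and IR64 in orange, and the mean with SD (n = 3) beside each group. In OsCPK1, OsCPK4 and OsCPK20 every salt array lies below every control array of its genotype, whereas in OsCPK5 and OsCPK13 the IR64 control numbered 2 reaches down to the salt arrays.

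Other CDPKs known for roles in stress moved little in shoots under salt. OsCPK12, whose overexpression raises salt tolerance, was at 90.6 to 99.9 in PL177 controls and 82.3 to 90.2 under salt, and at 112 to 134 and 84.9 to 129 in IR64. OsCPK24, which acts in cold tolerance, gave 1317 to 1696 and 915 to 1332 in PL177 and 996 to 1968 and 776 to 1363 in IR64. Neither passed the test, with log2 fold changes of -0.12 ± 0.10 and -0.25 ± 0.10 for OsCPK12 and -0.42 ± 0.21 and -0.53 ± 0.21 for OsCPK24 (adjusted p = 0.12 to 0.468). OsCPK21, which confers ABA sensitivity and salt tolerance when overexpressed, gave 172, 42.5 and 185 in PL177 controls and 45.9, 34.9 and 58.1 under salt, and in IR64 136, 22.0 and 306 and then 60.7, 105 and 55.0. Its control arrays overlapped the salt arrays in both genotypes, at -0.93 ± 0.51 and -0.49 ± 0.51 (adjusted p = 0.274 and 0.658). Without the 2 control arrays numbered 2 it was called lower in both genotypes, at -1.44 and -1.20 (adjusted p = 0.00223 and 0.0071).

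Among the 24 CIPKs, salt lowered 3 in shoots in at least 1 genotype (12.5%, beside 1.65% of all probe sets) and raised none (beside 1.14%). OsCIPK21 and OsCIPK23 were lower in both genotypes and OsCIPK17 in PL177. The median log2 fold change of the CIPKs was 0.001 in PL177 and 0.04 in IR64, and 9 of 24 were below 0 in both genotypes (37.5%, near the 36.8% of all probe sets). At an adjusted p below 0.05 without a fold limit 8 of 24 passed (33.3%, beside 14.6%), 4 of them lower in salt (OsCIPK17, OsCIPK21, OsCIPK23 and OsCIPK29) and 4 higher (OsCIPK11, OsCIPK24, OsCIPK25 and OsCIPK32).

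OsCIPK21 gave 559, 364 and 415 in PL177 controls and 175, 124 and 179 under salt. IR64 read 652, 252 and 781 and then 216, 144 and 170. All salt arrays lay below all control arrays of the same genotype. Its log2 fold change was -1.33 ± 0.27 in PL177 and -1.34 ± 0.27 in IR64 (limma, adjusted p = 0.00582 and 0.0059), and both calls were kept without any 1 array.

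OsCIPK23, the kinase of AKT1, gave 1632, 1813 and 1817 in PL177 controls and 1016, 744 and 765 under salt. The IR64 arrays read 2033, 1353 and 2140 and then 903, 637 and 689. The groups did not overlap, and the log2 fold changes were -1.01 ± 0.15 and -1.21 ± 0.15 (limma, adjusted p = 0.000646 and 0.000153). A second probe set of the gene was not called, at -0.10 and -0.08 (adjusted p = 0.363 and 0.527), and the mean of both probe sets was -0.56 and -0.65. The PL177 call was also lost, at -0.94 to -0.99, without PL177 salt replicates 2 or 3 or PL177 control replicates 2 or 3, and with the larger constant (-0.93), all 36 arrays in 1 fit (-0.97) or both shoot controls numbered 2 left out (-0.96). AKT1 itself, the channel that CIPK23 activates, was lower in shoots under salt by less than 2-fold, at -0.77 ± 0.17 in PL177 and -0.85 ± 0.17 in IR64 (adjusted p = 0.00975 and 0.00562).

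OsCIPK17 gave 696, 482 and 1108 in PL177 shoot controls and 421, 313 and 303 under salt, without overlap, and 491, 477 and 833 and then 408, 289 and 417 in IR64. It changed by -1.02 ± 0.25 in PL177 (limma, adjusted p = 0.0177) and -0.59 ± 0.25 in IR64 (adjusted p = 0.176). The PL177 call was lost without PL177 salt replicates 2 or 3 or PL177 control replicate 3 (-0.96 to -0.71), at -0.86 with the larger constant, and at -0.98 when arrays were only centred or fitted together.

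OsCIPK24, the rice SOS2, was among the CIPKs that stood higher in shoots under salt, though far below 2-fold. It gave 1192, 1248 and 1341 in PL177 controls, 1470, 1541 and 1703 under salt and 1111, 1201 and 1153 under salt+ABA. In IR64 the values were 1248, 1386 and 1368, then 1649, 1570 and 1512, then 1178, 1169 and 1178. Salt arrays lay above all control arrays and all salt+ABA arrays of their genotype. The log2 fold change under salt was 0.34 ± 0.07 and 0.30 ± 0.07 (limma, adjusted p = 0.00875 and 0.0187), and ABA on top of salt gave -0.43 ± 0.07 in both (adjusted p = 0.00341 and 0.00432). OsCIPK11 and OsCIPK32 were higher under salt as well, by 0.38 to 0.62 (adjusted p = 0.00412 to 0.0296). The gene model of OsCIPK32 overlaps that of CML3 in the gene table, so its signal may not be its own. A dimmer second probe set of OsCIPK32 gave -0.18 in PL177 and 0.004 in IR64 (limma, adjusted p = 0.329 and 0.99).

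OsCIPK5 and OsCIPK25 were called higher under salt when the shoot control arrays numbered 2 were left out, and not with all arrays. OsCIPK25 gave 2281, 3847 and 2379 in PL177 controls and 4244, 5441 and 5808 under salt, and 2315, 4843 and 2163 and then 4374, 5144 and 5976 in IR64. The IR64 control numbered 2 lay within the salt arrays. With all arrays its log2 fold change was 0.94 ± 0.28 and 0.91 ± 0.28 (limma, adjusted p = 0.0424 and 0.0548), and without those 2 arrays it was 1.19 and 1.31, called in both genotypes. OsCIPK5 went from 0.77 ± 0.42 and 0.98 ± 0.42 (adjusted p = 0.269 and 0.179) to 1.20 and 1.61, called in both genotypes without them. OsCIPK14 was called lower in IR64 without them as well (-1.01, against -0.71 with all arrays).

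OsCIPK31, which acts in germination and seedling growth under abiotic stress, did not pass in shoots. It gave 4986 to 5950 in PL177 controls and 5725 to 7274 under salt, and 4941 to 6511 and 5224 to 9168 in IR64. It changed by 0.25 ± 0.16 and 0.24 ± 0.16 (adjusted p = 0.35 and 0.442).

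Adding ABA to salt in shoots raised 4 of 20 CDPKs in at least 1 genotype (20.0%), beside 0.344% of all probe sets, and lowered none, beside 0.622%. No CIPK was called in either direction. The raised genes, OsCPK1, OsCPK4, OsCPK5 and OsCPK9, were all among those lower under salt, but both comparisons share the salt arrays, so that each salt array enters both. At an adjusted p below 0.05 alone 9 CDPKs and 8 CIPKs passed, where 13.8% of all probe sets did. The median of the CDPKs was 0.45 in PL177 and 0.40 in IR64, and that of the CIPKs 0.04 in both.

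OsCPK1 gave 2685, 2643 and 2512 under salt+ABA in PL177 and 2655, 2525 and 2799 in IR64. These arrays lay above all salt arrays, and in PL177 they lay below all controls. Against salt the log2 fold change was 1.18 ± 0.23 in PL177 and 1.38 ± 0.23 in IR64 (limma, adjusted p = 0.00632 and 0.00416), and was kept without any 1 array. OsCPK4 gave 4164, 3931 and 3740 in PL177 and 4965, 3983 and 4231 in IR64, above all salt arrays, with 0.78 ± 0.25 in PL177 and 1.44 ± 0.25 in IR64 (adjusted p = 0.0552 and 0.00416), so that it was called in IR64 alone. OsCPK24 was higher in IR64 by 0.81 ± 0.21 (adjusted p = 0.027), under 2-fold.

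OsCPK5 gave 1724, 1756 and 1710 under salt+ABA in PL177 and 2064, 1743 and 1800 in IR64, where it was called (1.07 ± 0.30, limma, adjusted p = 0.0399). OsCPK9 gave 1308, 1440 and 1531 in PL177, where it was called (1.01 ± 0.29, adjusted p = 0.04), and 1352, 1310 and 1479 in IR64 (0.93 ± 0.29, adjusted p = 0.064). Without both shoot controls numbered 2, OsCPK13 was called higher in IR64 too (1.04). The calls of OsCPK5 and OsCPK9 were lost with the larger constant (0.99 and 0.92), with median centring alone (adjusted p = 0.0583 and 0.0531), and without any 1 of 8 arrays each (adjusted p = 0.0535 to 0.132 and 0.0521 to 0.144). For OsCPK5 these were IR64 salt replicates 2 and 3 and all salt+ABA arrays of both genotypes, and for OsCPK9 PL177 salt replicates 2 and 3 and the same salt+ABA arrays.

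Salt+ABA against the control left no member of either family called in shoots, where 0.952% of all probe sets were lower and 0.391% higher. At an adjusted p below 0.05 alone 8.25% of all probe sets passed and 3 members did. OsCPK12 was at 61.6 to 77.9 in PL177 and 66.6 to 78.5 in IR64 under salt+ABA, below all controls, at -0.39 ± 0.10 and -0.62 ± 0.10 (limma, adjusted p = 0.0282 and 0.00183). OsCIPK23 remained below the controls, at 1088 to 1248 in PL177 and 1093 to 1215 in IR64 (-0.54 ± 0.15 and -0.56 ± 0.15, adjusted p = 0.0476 and 0.0386). Its second probe set gave -0.067 and -0.085 (limma, adjusted p = 0.642 and 0.521). OsCIPK20 was higher in PL177 by 0.47 ± 0.09 (adjusted p = 0.00904). Without both shoot control arrays numbered 2, OsCPK21 was called lower in PL177 (-1.04) and OsCIPK21 in IR64 (-1.15).

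In roots salt lowered 1 of 20 CDPKs (5.0%), OsCPK7, beside 0.713% of all probe sets, and raised none, beside 0.802%. Salt+ABA against the control and against salt called no CDPK, where 1.05% and 1.15% of all probe sets were lower and 1.20% and 0.447% higher. At an adjusted p below 0.05 alone the shares of all probe sets were 17.5%, 16.9% and 9.31% for these 3 comparisons, and 5, 5 and 2 CDPKs passed. The medians of the CDPKs in roots lay between -0.10 and 0.02.

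OsCPK7 gave 3133, 1988 and 3055 in PL177 root controls, 1431, 1418 and 911 under salt and 1521, 1564 and 1501 under salt+ABA. In IR64 they were 2886, 1803 and 2927, then 1163, 1319 and 980, then 1222, 1307 and 1411. Every treated array lay below every control array of its genotype, the control numbered 2 being the lowest in both. Its log2 fold change under salt was -1.16 ± 0.20 and -1.11 ± 0.20 (limma, adjusted p = 0.00175 and 0.00248), and under salt+ABA -0.84 ± 0.20 and -0.88 ± 0.20. Under salt it slipped under 2-fold without PL177 salt replicate 3 (-0.96) in PL177 and without IR64 salt replicate 3 (-0.98) or IR64 control replicate 3 (-0.99) in IR64, and without both salt arrays numbered 3 (-0.96 and -0.98). Without both root control arrays numbered 2 it was called under salt+ABA as well (-1.05 and -1.09).

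OsCPK23, a kinase of sucrose synthase in seeds, was lower in every treated root group by less than 2-fold. It gave 1718, 1623 and 1815 in PL177 controls, 963, 963 and 940 under salt and 825, 904 and 899 under salt+ABA. IR64 arrays read 1017, 956 and 1128, then 613, 698 and 521, then 640, 676 and 585. No treated array reached a control array, at -0.89 ± 0.10 and -0.79 ± 0.10 under salt and -0.99 ± 0.10 and -0.69 ± 0.10 under salt+ABA (limma, adjusted p = 6.04e-06 to 0.000213). Without both root controls numbered 2 the PL177 value under salt+ABA was called (-1.03).

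OsCPK21 stood higher in treated roots but did not pass. It gave 49.99, 96.0 and 60.3 in PL177 controls, 135, 76.2 and 476 under salt and 254, 228 and 156 under salt+ABA. IR64 arrays gave 95.2, 110 and 76.5, then 185, 83.4 and 506, then 213, 243 and 250. Salt+ABA arrays lay above all controls, and salt arrays overlapped them. The log2 fold change under salt+ABA was 1.31 ± 0.49 and 1.07 ± 0.49 (limma, adjusted p = 0.095 and 0.195). Without both root salt arrays numbered 3 the fold changes under salt+ABA were 1.30 and 1.06 and were called (adjusted p = 0.0021 and 0.00936).

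OsCPK4, OsCPK12, OsCPK13 and OsCPK24 were not called in roots. OsCPK4 gave 1520, 2905 and 1252 in PL177 controls and 1621, 1350 and 3665 under salt, and 2059, 2933 and 1989 and then 1925, 1918 and 4848 in IR64, with the salt array numbered 3 highest in both. OsCPK13 had its salt arrays numbered 3 at 4223 and 5521 against 2176 to 2903 in the other salt arrays. OsCPK12 stayed between 44.3 and 80.7 and OsCPK24 between 1433 and 1858 over all 18 root arrays.

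Among the CIPKs in roots, salt raised 1 of 24, OsCIPK29, and lowered 1, OsCIPK17, both in both genotypes (4.2% each, beside 0.802% and 0.713% of all probe sets). Salt+ABA against the control raised OsCIPK16 in both genotypes and lowered OsCIPK14 and OsCIPK17 in PL177 (4.2% and 8.3%, beside 1.20% and 1.05%). ABA added to salt raised OsCIPK16 in IR64 (4.2%, beside 0.447%) and lowered none (beside 1.15%). The medians lay between -0.05 and 0.04, and at an adjusted p below 0.05 alone 11, 9 and 3 CIPKs passed in the 3 comparisons (45.8%, 37.5% and 12.5%), beside 17.5%, 16.9% and 9.31% of all probe sets. The last of these shares was near that of all probe sets.

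OsCIPK17 gave 659, 341 and 778 in PL177 root controls, 305, 161 and 136 under salt and 232, 234 and 184 under salt+ABA. In IR64 it gave 530, 258 and 695, then 280, 155 and 121, then 227, 246 and 225. The first salt array of IR64 lay above its control numbered 2, the only overlap of the 4 comparisons with the control. The log2 fold change under salt was -1.50 ± 0.36 and -1.28 ± 0.36 (limma, adjusted p = 0.011 and 0.0293), and under salt+ABA -1.30 ± 0.36 and -0.92 ± 0.36 (adjusted p = 0.0222 and 0.117). The PL177 salt call was lost without PL177 control replicate 3 (adjusted p = 0.0629). The IR64 salt call was lost without IR64 control replicates 1 or 3 or IR64 salt replicates 2 or 3 (adjusted p = 0.0902 to 0.141), without both salt arrays numbered 3 (adjusted p = 0.107) and with the larger constant (-0.98), and the PL177 salt+ABA call without any PL177 salt+ABA array or PL177 control replicates 1 or 3 (adjusted p = 0.0534 to 0.102). Without both root controls numbered 2 the IR64 value under salt+ABA was called as well (-1.29).

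OsCIPK29 moved the other way. It gave 211, 424 and 179 in PL177 root controls, 634, 699 and 699 under salt and 499, 468 and 459 under salt+ABA. In IR64 it gave 241, 684 and 244, then 615, 693 and 1400, then 529, 422 and 501. In PL177 the groups stood apart, and in IR64 the control numbered 2 lay among the salt arrays. Under salt the log2 fold change was 1.23 ± 0.35 and 1.17 ± 0.35 (limma, adjusted p = 0.0272 and 0.0411). The PL177 call was lost without PL177 salt replicates 2 or 3 or PL177 control replicates 1 or 3 (adjusted p = 0.0687 to 0.126). The IR64 call was lost without any 1 of 11 arrays (adjusted p = 0.0518 to 0.177), namely every salt+ABA array, PL177 salt replicate 2, IR64 salt replicates 2 and 3 and IR64 control replicates 1 and 3, and with the larger constant, the trend and robust options, or both salt arrays numbered 3 left out (0.83, adjusted p = 0.18). Without both root controls numbered 2 both salt calls stood (1.56 and 1.62) and the PL177 value under salt+ABA was called too (1.11, against 0.78 with all arrays).

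The leaf genes were brightest in root arrays under salt, as was OsCIPK29, a gene with higher values in shoots than in roots. Their summed intensity in PL177 roots was 8132 to 16870 under the control, 19980 to 22980 under salt and 5889 to 8043 under salt+ABA. In IR64 roots it was 11350 to 16000, 18080 to 28400 and 6748 to 9221, with the salt array numbered 3 highest in both genotypes. OsCIPK7, a kinase of chilling tolerance that was also brighter in shoots, gave 1074 to 1416 in PL177 root controls, 2037 to 2553 under salt and 1285 to 1385 under salt+ABA, and 1235 to 1317, 1914 to 2366 and 1296 to 1438 in IR64. The groups under salt lay above the others, at 0.73 ± 0.10 against the control in both genotypes (limma, adjusted p = 0.000264 and 0.000274), under 2-fold. A dimmer second probe set gave 0.08 and 0.10 there, uncalled. The other CIPKs called higher in shoots were mixed in their mean root responses of both genotypes to salt and to salt+ABA. These log2 values were 0.48 and -0.11 for OsCIPK25 and 0.39 and 0.44 for OsCIPK5. OsCIPK6 had 0.13 and 0.21, and OsCIPK31 had -0.32 and -0.03. The part of leaf RNA in the values of OsCIPK29 and OsCIPK7 was not tested.

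OsCIPK16 gave 275, 180 and 359 in PL177 root controls, 979, 285 and 355 under salt and 1123, 1113 and 885 under salt+ABA. IR64 read 359, 157 and 487, then 751, 285 and 229, then 1156, 1400 and 1108. The salt+ABA arrays lay above every control array, whereas the salt arrays spread widely, the first being the highest in both genotypes. Under salt+ABA the log2 fold change was 1.79 ± 0.46 and 1.87 ± 0.46 (limma, adjusted p = 0.016 and 0.0153), the largest of both families in the treatment comparisons of roots. ABA added to salt gave 1.69 ± 0.46 in IR64 (adjusted p = 0.0368) and 1.13 ± 0.46 in PL177 (adjusted p = 0.187). The leaf genes were lowest under salt+ABA, the group in which OsCIPK16 was highest. Its probe set is of a kind that can cross-hybridise, so the signal may include other transcripts.

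The calls of OsCIPK16 depended on single arrays. That of PL177 under salt+ABA was lost without PL177 salt+ABA replicates 1 or 2 or PL177 control replicate 2 (adjusted p = 0.0549 to 0.0633), and that of IR64 without IR64 salt+ABA replicate 2 or IR64 control replicate 2 (adjusted p = 0.0631 to 0.0714) or both root controls numbered 2 (adjusted p = 0.0659). That of ABA added to salt in IR64 was lost without IR64 salt replicates 2 or 3, any IR64 salt+ABA array, or PL177 salt+ABA replicates 1 or 2 (adjusted p = 0.0514 to 0.154), with the trend and robust options (adjusted p = 0.06), and without both salt arrays numbered 3 (adjusted p = 0.146).

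OsCIPK14, which with OsCIPK15 acts in the response to microbial elicitors, changed with a small spread between arrays. It gave 4828, 5489 and 4925 in PL177 root controls, 2822, 2619 and 2900 under salt and 2606, 2507 and 2620 under salt+ABA. In IR64 it gave 4594, 4359 and 5311, then 2613, 2721 and 3193, then 2359, 2538 and 2424. All treated arrays lay below all controls. The log2 fold changes were -0.95 ± 0.08 and -0.74 ± 0.08 under salt and -1.01 ± 0.08 and -0.88 ± 0.08 under salt+ABA (limma, adjusted p = 9.85e-07 to 4.03e-05), so that only PL177 under salt+ABA crossed 2-fold. It fell just short of it, at -0.98 to -0.95, without PL177 salt+ABA replicate 2, without PL177 control replicate 2 or both root controls numbered 2, with the larger constant, or with median centring alone.

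OsCIPK23 in roots gave 6532, 5280 and 5332 in PL177 controls and 4505, 3134 and 2985 under salt, and 6455, 5514 and 6122 and then 4273, 3052 and 2929 in IR64. The groups did not overlap, at -0.78 ± 0.14 and -0.82 ± 0.14 (limma, adjusted p = 0.00224 and 0.00169). Its second probe set showed no such fall in roots, at -0.026 and 0.008 (limma, adjusted p = 0.893 and 0.973). OsCIPK24 gave 1808, 1623 and 1464 in PL177 controls and 1884, 2096 and 2210 under salt, and 1744, 1476 and 1481 and then 1581, 2133 and 1748 in IR64. It did not pass, at 0.27 ± 0.11 and 0.18 ± 0.11 (adjusted p = 0.106 and 0.332). OsCIPK31 was lower under salt in PL177, with intensities of 475 to 560 and then 340 to 485 (-0.44 ± 0.12, adjusted p = 0.02), and read 402 to 472 and 381 to 435 in IR64 (adjusted p = 0.374). OsCIPK1 was lower in both genotypes and both treatments by 0.58 to 0.73 on the log2 scale (adjusted p = 5.05e-05 to 0.0006).

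**Figure D3:**
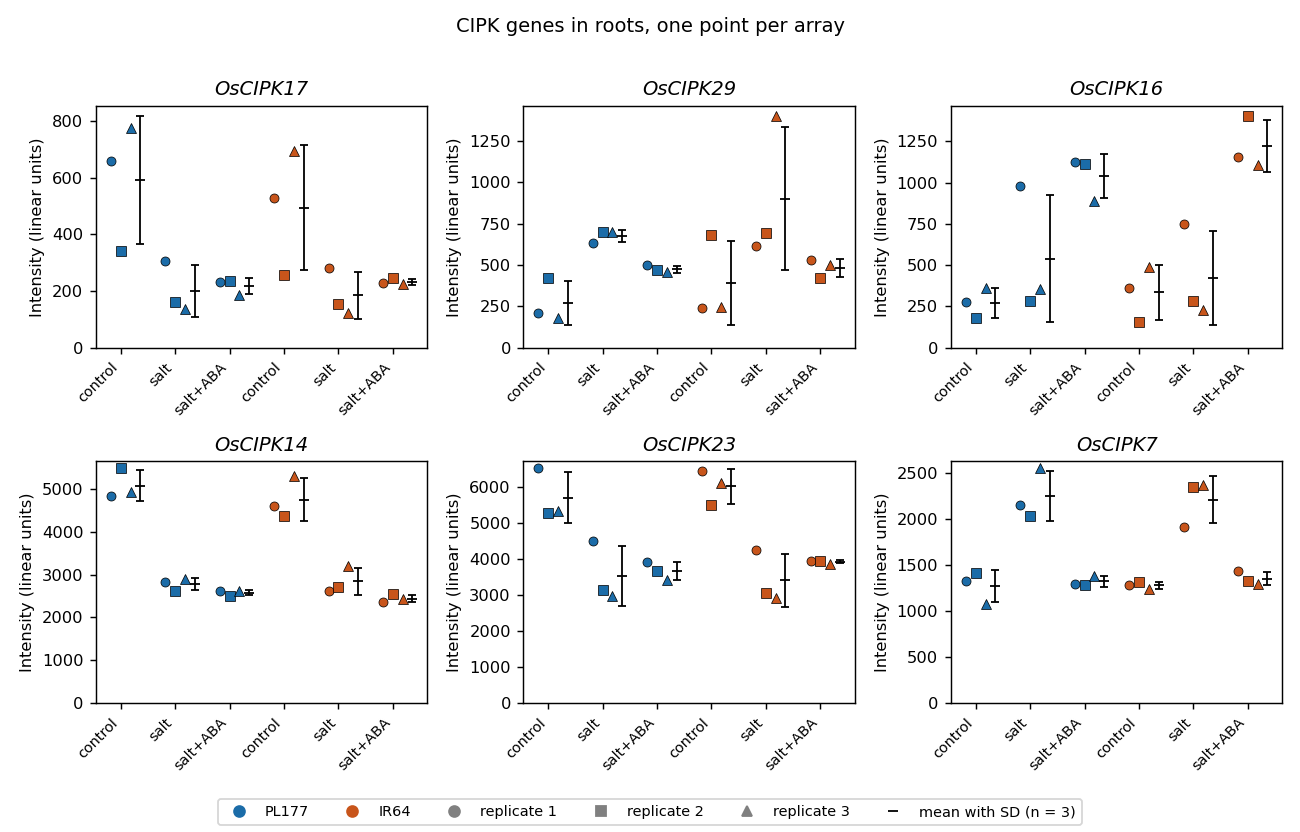
Deposited intensities (linear) of 6 CIPK genes in roots, 1 point per array with the replicate number as symbol, PL177 in blue and IR64 in orange, and the mean with SD (n = 3) beside each group. OsCIPK16 is highest under salt+ABA, OsCIPK17, OsCIPK14 and OsCIPK23 are highest under the control, and OsCIPK29 and OsCIPK7 are highest under salt except for an IR64 control of OsCIPK29 at 684.

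Between the genotypes, no member of either family was called under any treatment, where 0.159% of all probe sets were called in shoots and 0.155% in roots. No member exceeded 2-fold even at an unadjusted p below 0.05. Below 2-fold, at an unadjusted p below 0.05 in at least 1 treatment (limma), 3 of 44 members passed in shoots (OsCPK8, OsCPK12 and OsCIPK29), where 9.86% of all probe sets did, and 6 in roots (OsCPK17, OsCPK20, OsCPK22, OsCPK23, OsCIPK1 and OsCIPK14), where 12.6% did. OsCPK23 alone passed at the adjusted p, being higher in PL177 roots. Its arrays, given above, did not overlap between PL177 and IR64 under any of the 3 treatments, and the difference was 0.75 ± 0.10 under the control, 0.65 ± 0.10 under salt and 0.45 ± 0.10 under salt+ABA (limma, adjusted p = 0.0011, 0.00449 and 0.0912). The response to salt or salt+ABA differed between the genotypes for no member, where 0.00349% of all probe sets in shoots and 0.00175% in roots were called. At an unadjusted p below 0.05 alone it passed for none in shoots, where 5.10% of all probe sets did, and for OsCPK23, OsCIPK11 and OsCIPK20 in roots, where 4.49% did. The values of OsCPK9, OsCPK13, OsCPK5 and OsCIPK17 that passed in 1 genotype alone are therefore not shown to differ between PL177 and IR64.

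Shoots and roots differed without any treatment. The organ comparisons average both genotypes, whose same-numbered arrays deviated together in the controls and in salt-treated roots. Their SE and adjusted p may therefore be too small. Of the CIPKs 6 of 24 were higher in shoots and 2 (8.3%) in roots, and of the CDPKs 2 of 20 were higher in shoots and 1 (5.0%) in roots, beside 8.23% and 7.93% of all probe sets. The CDPK shares were thus near those of all probe sets.

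OsCIPK5 had the widest difference. Its 6 control arrays gave 706, 707, 721, 734, 1765 and 2498 in shoots and 23.4, 23.6, 26.7, 27.4, 28.4 and 32.2 in roots. On the log2(intensity + 32) scale the difference was 4.06 ± 0.21 (SE, n = 6 per organ, limma, adjusted p = 8.33e-16). The root arrays stood at or near the constant added, which narrows the difference. The 2 shoot controls numbered 2 widened it, and no value without both is given here. Without any 1 array it lay between 3.75 and 4.21. It was 4.77 with 8 added and 2.81 with the larger constant. OsCIPK25 gave 2163 to 4843 in shoots and 120 to 202 in roots (3.68 ± 0.22), OsCIPK31 4941 to 6511 and 402 to 560 (3.20 ± 0.10), and OsCIPK29 2446 to 3077 and 179 to 684 (2.85 ± 0.21). No root array reached a shoot array in these 4 genes. OsCIPK6 (1.99 ± 0.20) and OsCIPK7 (1.53 ± 0.07) were higher in shoots as well. OsCIPK1, at 0.99 ± 0.10, fell just short of 2-fold.

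On the root side stood OsCIPK10 and OsCIPK23. OsCIPK10 gave 1969 to 4189 in roots and 486 to 1079 in shoots (-2.32 ± 0.17, limma, adjusted p = 1.43e-12). OsCIPK23, whose known partner AKT1 takes up K+ in roots, gave 5280 to 6532 in roots and 1353 to 2140 in shoots (-2.04 ± 0.10, adjusted p = 4.64e-16). Both genes had every root array above every shoot array.

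Of the CDPKs, OsCPK9 gave 1004 to 2104 in shoots and 220 to 349 in roots (1.97 ± 0.17), and OsCPK4 4573 to 8035 and 1252 to 2933 (1.28 ± 0.24, limma, adjusted p = 3.82e-05). OsCPK18, which acts upstream of the mitogen-activated kinase MPK5 in defence, gave 267 to 408 in shoots and 694 to 779 in roots (-1.24 ± 0.07, adjusted p = 4.93e-15), and -0.79 as the mean of its 2 probe sets. OsCPK1 stood at 2415 to 5261 in shoots and 1287 to 1945 in roots (0.88 ± 0.14), under 2-fold. Leaving out any 1 array ended none of these calls.

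**Figure D4:**
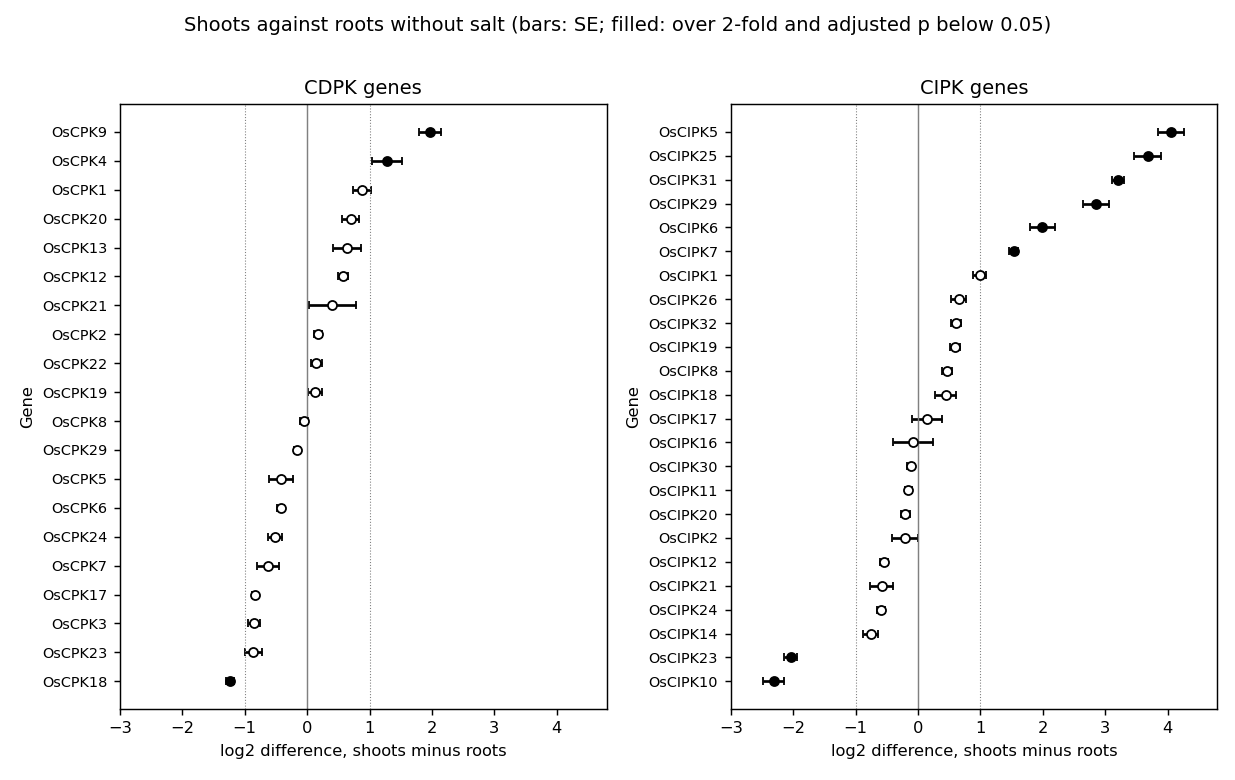
Log2 difference between shoots and roots under the control (mean of PL177 and IR64) for the 20 CDPK genes (left) and 24 CIPK genes (right), with SE bars. Filled points passed 2-fold at an adjusted p below 0.05. The CIPKs span from -2.32 (OsCIPK10) to 4.06 (OsCIPK5, whose root arrays are near background), the CDPKs from -1.24 (OsCPK18) to 1.97 (OsCPK9).

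The response to salt differed between shoots and roots for 4 CDPKs, all lower in shoots, and for 1 CIPK, beside 2.15% of all probe sets lower and 1.45% higher in shoots. OsCPK1, with a mean log2 response of both genotypes of -1.68 in shoots and 0.20 in roots, differed by -1.87 ± 0.19 (limma, adjusted p = 8.3e-08). OsCPK4 had -1.64 and 0.14, a difference of -1.77 ± 0.34 (adjusted p = 0.000401). Neither depended on any 1 array. In roots OsCPK1 stayed at 1287 to 1945 under the control and at 1636 to 2241 under salt.

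OsCPK20 had -1.14 in shoots and -0.09 in roots, with a difference of -1.04 ± 0.19 (limma, adjusted p = 0.000275). It slipped under 2-fold without both root salt arrays numbered 3 (-0.88), with the larger constant, and without any 1 of 8 arrays, namely PL177 shoot salt and control replicates 2, IR64 shoot salt replicate 2, IR64 shoot control replicates 1 and 3, PL177 root salt and control replicates 3 and IR64 root salt replicate 3. OsCPK21 had -0.70 and 1.0, a difference of -1.70 ± 0.53 (adjusted p = 0.0221). That was lost without IR64 root salt replicate 3 (-1.41, adjusted p = 0.0519) and without both root salt arrays numbered 3 (-1.08, adjusted p = 0.103). OsCIPK29 had -0.50 in shoots and 1.25 in roots, a difference of -1.76 ± 0.29 (adjusted p = 7.99e-05) that no 1 array decided. Its root values, like those of the leaf genes, were highest under salt, as given above.

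The response to salt+ABA differed between the organs for OsCPK21 and OsCIPK17, beside 1.52% of all probe sets lower and 1.09% higher in shoots. For OsCPK21 the difference was -1.56 ± 0.53 (limma, adjusted p = 0.0342), lost without any 1 of 13 arrays of the shoot and root controls and salt+ABA groups (-1.55 to -1.26, adjusted p = 0.0506 to 0.0725). For OsCIPK17 it was 1.02 ± 0.33 (adjusted p = 0.0254), under 2-fold or past the p threshold without any 1 of 10 arrays of the same groups (0.88 to 0.99) without both shoot controls numbered 2 (0.85, adjusted p = 0.0707), with the larger constant (0.81) and with median centring alone (0.86).

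**Figure D5:**
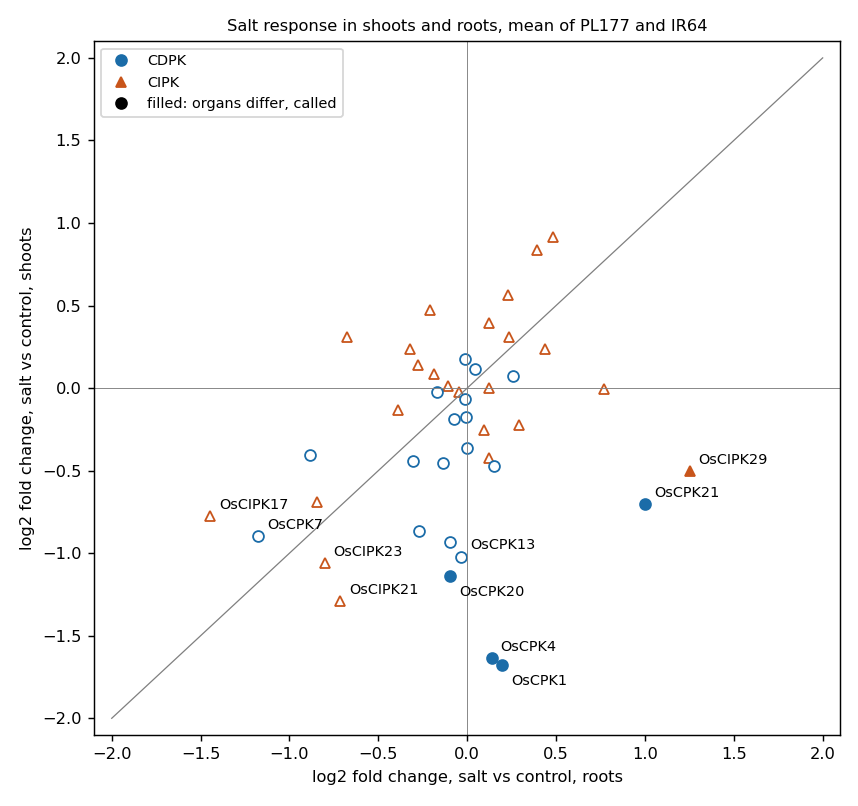
Mean log2 fold change of PL177 and IR64 under salt in shoots (vertical) against that in roots (horizontal) for each CDPK (circles) and CIPK (triangles), filled where the organs differed by more than 2-fold at an adjusted p below 0.05. OsCPK1 and OsCPK4 lie at -1.68 and -1.64 in shoots and near 0 in roots, and OsCIPK29 and OsCPK21 lie below 0 in shoots and at 1.25 and 1.0 in roots.

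Some members sit next to each other in the genome. OsCIPK29 and OsCIPK2 are neighbours with no protein-coding gene between them, as are OsCIPK30 and OsCIPK12. The same holds for OsCIPK16 and OsCIPK27, of which OsCIPK27 was not analysed here. OsCIPK2 did not follow OsCIPK29 in roots, at 2019 to 2135 in PL177 controls and 2010 to 2560 under salt, and was not called in any comparison. OsCIPK30 and OsCIPK12 were not called either, with OsCIPK30 between 26.1 and 53.9 over all 36 arrays.

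Other genes of calcium signalling were counted beside the kinases. None of the 7 CBL genes measured was called in a treatment comparison of either organ, nor were the only measured NADPH oxidase of the list (rbohB), the calcium- and calmodulin-dependent kinase CCaMK or AKT1. Among 26 calmodulin and calmodulin-like genes, salt in shoots lowered 4 (CML5, CML14, CML20 and CML27) and raised 1 (CML8) in at least 1 genotype. Of all probe sets 1.65% were lower and 1.14% higher. None of the 26 was called in roots. CML5 fell in both genotypes, by 1.40 and 1.91 on the log2 scale, and CML8 rose by 1.39 and 1.46 (limma, adjusted p = 0.002 to 0.0244). In shoots CML5 and CML14 were also called lower under salt+ABA against the control, beside 0.952% of all probe sets. ABA added to salt lowered CML8 there, beside 0.622%. CBL10, a sensor of the Na+ pathway in shoots as known from Arabidopsis, was higher in shoots under salt by less than 2-fold, at 0.82 ± 0.12 in PL177 and 0.68 ± 0.12 in IR64 (adjusted p = 0.000569 and 0.00218).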

How the data were processed

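RNA from shoots and roots of PL177 and IR64 was hybridised to 36 rice genome arrays, and the deposited values are linear intensities, 1 per probe set, as summarised by the authors by a method that the sources used here do not name. After leaving out 123 control probe sets, 57258 were tested. The median intensity of an array was 56.9 to 64.5, and 31.1% of values lay below 32. Precision is limited by the 3 arrays per group.

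Here the 18 arrays of an organ (or all 36, between organs) were quantile normalised, then 32 was added and log2 taken. Groups were compared with limma 3.58.1 in R 4.3.3. Following the study's methods, calls required both a change above 2-fold and an adjusted p under 0.05. The fit was tested on simulated data with independent noise in each array. That test cannot show how the fit behaves when same-numbered arrays deviate together, as they did here. Overlap between groups was judged on the normalised values. Members, gene lists and rules were chosen with earlier results of these data known. Values per array are given for up to 4 called members per family and organ with the largest change and groups apart, up to 4 with the largest organ difference or organ difference in response, members differing between genotypes, and a fixed list of known stress kinases. OsCIPK7, OsCIPK2, OsCIPK1, OsCIPK6, OsCIPK10, OsCIPK11, OsCIPK20, OsCIPK32 and OsCPK23 were added after their values were seen.

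Same-numbered arrays of PL177 and IR64 deviated together in the controls (correlation of deviations 0.704 to 0.739 in shoots, 0.584 to 0.695 in roots) and in roots under salt (0.149 to 0.505), so a replicate block was run as an alternative. The block was set within each organ, so it does not correct the comparisons between organs, which average both genotypes. Treatments of 1 genotype were not paired by number. Gene names came from the platform annotation and the RefSeq gene table of assembly ASM3414082v1. No sequences are shown.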

Additional observations from a re-analysis of the deposited data

Results flagged for a closer look

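The responses of 6 members differed between shoots and roots by a test of the difference itself (limma, 36 arrays, interaction of organ and treatment). Of all probe sets, 2.15% were called lower and 1.45% higher in shoots for salt, and 1.52% and 1.09% for salt+ABA. For salt against the control, shoots minus roots, the difference was -1.87 for OsCPK1, -1.77 for OsCPK4, -1.04 for OsCPK20, -1.70 for OsCPK21 and -1.76 for OsCIPK29. For salt+ABA against the control it was -1.56 for OsCPK21 and 1.02 for OsCIPK17. The mean responses to salt in shoots and roots stood at -1.68 and 0.20 for OsCPK1, -1.64 and 0.14 for OsCPK4, -1.14 and -0.09 for OsCPK20, -0.70 and 1.0 for OsCPK21 and -0.50 and 1.25 for OsCIPK29. Only the calls of OsCPK1, OsCPK4 and OsCIPK29 were kept whichever array was left out. The adjusted p of these organ comparisons may be too small, as given above.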

How the results depend on the processing

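Of 48 calls of single genes, 25 were kept without any 1 array, 36 with a larger constant added before the logarithm, 43 with median centring alone, 46 with the trend and robust options, 45 with the mean of all probe sets, and all 48 with a smaller constant (8), a mean intensity of at least 100 or a replicate block. Some of these settings could end few calls. Most called genes have 1 probe set, which is then its own mean. A smaller constant enlarges fold changes, and the intensity filter kept every called gene while lowering the number of tests. For organ differences under the control the replicate block compared single reference replicates, so it is no check of those calls. No value changed its sign. The t-test that the study names, on 2 groups of 3, kept 2 of 30 treatment calls after adjustment and 25 before it. The number of arrays limits the precision, and dim genes can change unseen.

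At an adjusted p below 0.05 alone, CDPKs and CIPKs passed as follows. In shoots, 8 CIPKs passed for salt, 1 CDPK and 2 CIPKs for salt+ABA against the control and 9 and 8 for salt+ABA against salt. In roots the counts were 5 and 11, 5 and 9, and 2 and 3, and 1 gene differed between genotypes. Between organs, 15 and 20 differed under the control and 14 and 15 in response, but the share of all probe sets was not counted there. These organ counts therefore show nothing particular to the 2 families. The CDPKs under the control include the dim OsCPK2 and OsCPK29.

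CDPKs raised by ABA added to salt in shoots (4) were 2 with the larger constant and 2 with median centring. With centring 6 CDPKs, not 3, differed between organs under the control and 1 CIPK, not 2, in response. For salt+ABA against the control in roots, where no CDPK was called, 1 was with 8 as the constant or all 36 arrays in 1 fit, and 1 by the t-test with or without adjustment. The trend and robust options left 0 CIPKs, not 1, for ABA added to salt in roots. With the adjusted t-test the counts for salt were 0 and 0 in shoots and 0 and 0 in roots, 1 CDPK for ABA added to salt in shoots, 1 CIPK for salt+ABA and 0 CIPKs for ABA added to salt in roots, and without adjustment 3 CDPKs for salt in shoots. The replicate block over all arrays gave 5 CDPKs between organs under the control, not 3. It compared a single reference replicate of each organ there, so this count says nothing of the organ means. The replicate block, also within treatments, left 0 genes called between genotypes. Set within organs it changed no other call. Set within treatments it shifts the treatment comparisons in the same way and is no check of them.

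Chosen after seeing the data, leaving out both shoot controls numbered 2 gave 6 CIPKs for salt, 1 CDPK and 1 CIPK for salt+ABA against the control, and 5 CDPKs between organs. Leaving out both root salt arrays numbered 3 gave 0 CDPKs for salt, 1 CDPK for salt+ABA against the control, 0 CIPKs for ABA added to salt, and 4 CIPKs with an organ difference in response. Leaving out both root controls numbered 2 gave 2 CDPKs for salt+ABA against the control.

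Without any 1 array, CDPK and CIPK counts in shoots ranged from 4 to 7 and 2 to 6 for salt, 0 and 0 to 1 for salt+ABA against the control, and 2 to 6 and 0 for ABA added to salt. In roots they ranged from 1 to 1 and 1 to 3, 0 to 2 and 1 to 3, and 0 and 0 to 2. Between organs they ranged from 3 to 4 and 8 to 9 under the control, and 3 to 6 and 1 to 4 in response. Genotype counts stayed at 0.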

Other observations

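Secondary probe sets of OsCIPK7 and OsCIPK10, not used for the counts, were called lower under salt in PL177 shoots (-1.06 and -1.02, limma, adjusted p = 0.00393 and 0.000854), whereas the brightest probe sets of these genes gave -0.005 and -0.28. The probe sets of a gene thus disagreed in OsCIPK7 and OsCIPK10, as they did in OsCIPK23 and OsCIPK32 above. These genes were chosen after their values were seen, and the list may not be complete.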
